A study of Homo sapiens with 4 samples.

Results

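The mRNAs of 10 enzymes and chaperones that process and cross-link collagen (BMP1, P4HA1, P4HA2, P4HB, PLOD1, PLOD2, PLOD3, LOX, LOXL2 and SERPINH1) were examined for peaks of N7-methylguanosine (m7G) antibody enrichment in U2OS cells. A member was taken as carrying a peak when its symbol stood in the gene name column of a deposited peak table, and a member without a row was counted as having no peak. Of the 10 members, of 20056 annotated protein-coding genes in all, 6 had rows, with 8 peaks in the immunoprecipitated (IP) replicate 1 and 11 in IP replicate 2. U2OS is an established human osteosarcoma cell line. The cells were untreated, and their poly(A) RNA was sequenced as 2 m7G IP and 2 input libraries. The IP used a commercial anti-m7G antibody, and no antibody was used for input, which enters here only through the fold enrichment of IP over input that the authors give for each peak. Nothing in the labels ties the replicates to separate cultures, and their spread may be technical.

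The tables held 4326 peaks in IP replicate 1 and 4862 in IP replicate 2, with median folds of 4.27 and 3.48. Folds, p-values and false discovery rates are the authors' own, and the depth behind each peak is unknown because the tables carry no read counts. A peak was called shared when its blocks (the contiguous pieces in which it is listed) overlapped a peak of the other replicate by at least 1 nt on the same strand, and each such peak was paired with its mutually best overlap. Over the 2642 shared peaks paired in this way, the folds of the 2 replicates differed by a median factor of 1.23, and 95% of them by less than a factor of 2.42. Of 10 osteoblast lineage markers, COL1A1 and SPARC carried a shared peak, and RUNX2 and SP7 were among those with no row. A shared peak lay on 1 of 6 epithelial markers (CLDN4), on 0 of 6 haematopoietic markers and on 0 of 4 hepatocyte markers.

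Collagen chains are modified while they are made in the endoplasmic reticulum. Prolyl 4-hydroxylases hydroxylate prolines, which stabilises the triple helix, and lysyl hydroxylases hydroxylate lysines, which prepares the chains for cross-links. The chaperone SERPINH1 binds the folded triple helix and escorts it to the Golgi. Outside the cell BMP1 removes the C-terminal propeptide of fibrillar procollagens, and the copper-dependent amine oxidases of the lysyl oxidase family oxidise lysines so that cross-links can form. The organic part of bone matrix consists largely of collagen I handled in this way. The base m7G forms the cap at the 5′ end of mRNAs and has also been mapped inside them.

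Shared peaks were present on 6 of the 10 members (60.0%), beside 10.5% of all protein-coding genes. Each table alone named the same number of members, 6 of 10 in IP replicate 1 beside 15.9% of protein-coding genes, and 6 of 10 in IP replicate 2 beside 17.4%. All 6 members named in either table had a shared peak, where 48.4% of the protein-coding genes named in either table did. The tables do not measure expression, so a member with no peak past the authors' threshold cannot be told apart from one with little RNA. The shares of all protein-coding genes, here and for the lists below, take in genes whatever their RNA level, which was not tested. Folds ranged widely among the carriers. BMP1 stood at 37.0 and 32.5, SERPINH1 had a peak at its gene start and another near its gene end, and the remaining members lay between 1.40 and 3.29 in their shared peaks. P4HA1, P4HA2, PLOD2 and PLOD3 had no row in either table, and no peak of another name lay on their strand within their annotated spans.

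**Figure D1:**
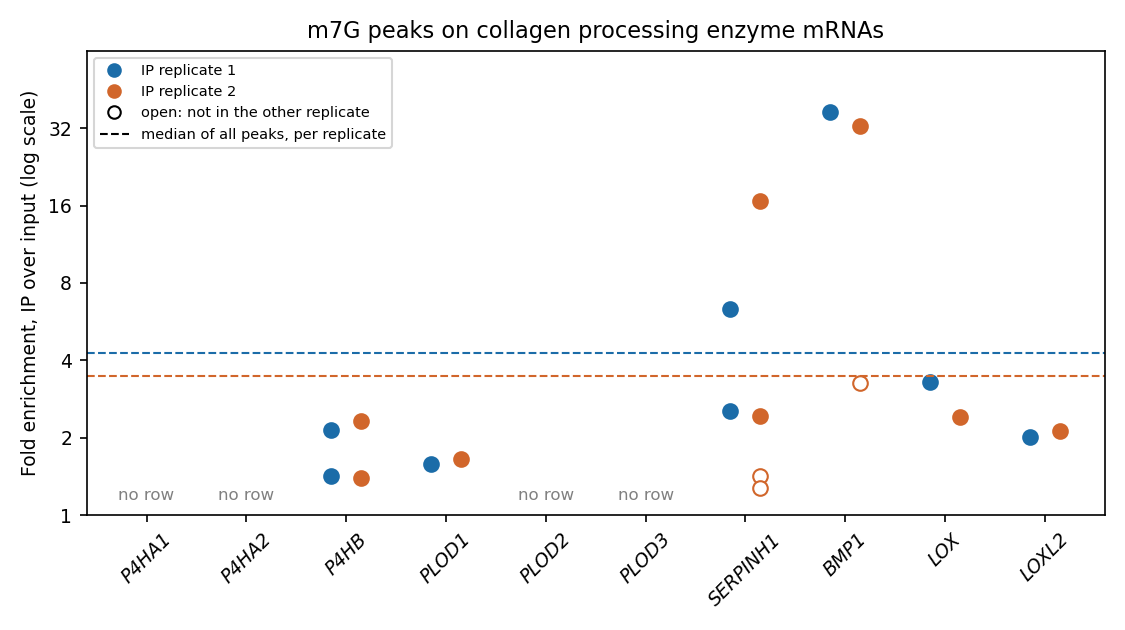
Fold enrichment of IP over input (log axis) for every peak on the 10 mRNAs, with IP replicate 1 in blue and IP replicate 2 in orange. Each point is 1 peak, open points were found in a single replicate, and dashed lines are the medians of all peaks of each table (4.27 and 3.48). BMP1 and the SERPINH1 start peak lie above both lines, and the other shared peaks lie below them.

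Among the prolyl 4-hydroxylase members only the accessory subunit carried peaks. P4HA1 and P4HA2, the catalytic alpha subunits, had no row. P4HB, the beta subunit, which is also the abundant disulfide isomerase of the endoplasmic reticulum, had 2 shared peaks and no others (19.6% of the protein-coding genes with a shared peak have 2 or more). The peak toward the gene end had folds of 2.15 in IP replicate 1 and 2.32 in IP replicate 2. It lay on chromosome 17 of GRCh38, minus strand, from 81843847 to 81845588 in IP replicate 1 and from 81843817 to 81845588 in IP replicate 2. It was listed as 3 blocks in each replicate, of which the 87-nt and 28-nt blocks were identical and the block nearest the gene end was 246 nt and 276 nt long. This peak had log10 p of -79.2 and -105, which ranked it 63 among the 4326 peaks of IP replicate 1 and 48 among the 4862 of IP replicate 2. Its folds stood at percentiles 16.6 and 28.4 of those tables, so a highly significant peak had a low fold.

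The second P4HB peak was identical in position in both replicates, from 81859280 to 81860398, in a 108-nt and a 72-nt block with a gap between them. The 72-nt block began 137 nt inside the annotated gene start, and the other began 1148 nt from it. Its folds were 1.42 and 1.40, with log10 p of -6.91 and -8.10. This was the smallest difference between replicates among the 8 shared peaks of the members, 0.020 on the log2 scale.

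Of the 3 lysyl hydroxylases, PLOD1, which acts on lysines of the collagen helix, carried a peak, and PLOD2 and PLOD3 did not. PLOD2 is known for hydroxylating lysines in the telopeptides, and PLOD3 also adds sugars to hydroxylysine. The PLOD1 peak had folds of 1.58 and 1.65, the lowest strongest peak among the 6 carriers. It lay on chromosome 1, plus strand, from 11949848 to 11950358 in IP replicate 1 and from 11949789 to 11950358 in IP replicate 2. A block of 59 nt in IP replicate 1 and of 118 nt in IP replicate 2 ended at the same base and was followed across a gap by a 2-nt block, so both replicates placed the outer edge just past that gap. Its midpoint, taken along the joined blocks, stood at 37.1% of the gene span. Its false discovery rate was 0.00372 in IP replicate 1 and 7.08e-05 in IP replicate 2.

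SERPINH1, the collagen-specific chaperone also called HSP47, had 2 peaks in IP replicate 1 and 4 in IP replicate 2. The peak at its gene start had folds of 6.36 in IP replicate 1 and 16.7 in IP replicate 2. The difference, a factor of 2.63, exceeded that of 96.1% of all shared peaks and was the largest among the members. The value 16.7 was shared by 25 peaks of IP replicate 2. The log10 p of the start peak was -5.36 and -4.95, at percentiles 45.3 and 37.5 of significance in those tables. On chromosome 11, plus strand, it ran from 75562175 to 75562294 in IP replicate 1 and from 75562115 to 75562234 in IP replicate 2. Relative to the annotated start these are positions -78 to 41 and -138 to -19, so the IP replicate 2 peak lay wholly upstream of the annotated start and the IP replicate 1 peak crossed it.

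The sequence around the SERPINH1 start is shown because its strongest peak falls across it. It is the plus strand at chr11:75562003-75562302 from RefSeq, build GRCh38.p14, from 250 bases before the annotated start onward. Capitals mark the 60 bases covered by the peaks of both replicates.
SERPINH1: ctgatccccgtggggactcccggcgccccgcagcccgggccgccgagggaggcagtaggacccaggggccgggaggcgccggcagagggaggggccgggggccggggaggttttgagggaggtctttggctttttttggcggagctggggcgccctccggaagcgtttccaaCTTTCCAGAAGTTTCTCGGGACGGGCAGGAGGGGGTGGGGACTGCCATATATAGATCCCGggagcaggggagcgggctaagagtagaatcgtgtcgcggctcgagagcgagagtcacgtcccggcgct

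The capitals hold TATATA, a palindrome that reads the same on both strands, at 75562222 to 75562227, which is 31 to 26 bases before the annotated start. Of 35116 RefSeq promoter windows of the same length, 3.99% hold TATATA on either strand, and 1.34% hold it in the 60 bases at the same offset. The GA-rich hexamer GANGAN was found 0 times on either strand of the whole window, and 89.2% of the windows hold it. TATAAA was also found 0 times, and 11.5% of the windows hold it. The capitals are 58.3% G and C, against a median of 60.0% over all windows at that offset. RefSeq lists a further SERPINH1 start 220 bases downstream, in a window that overlaps the end of the one shown. In all, 8 of the 10 members had windows in that table, and none of the shared peaks of P4HB, PLOD1 or LOX reached theirs.

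The other shared SERPINH1 peak lay near the gene end, from 75572120 to 75572269 in IP replicate 1 and from 75572150 to 75572269 in IP replicate 2. Its folds were 2.54 and 2.44, a factor of 1.04 apart. Its log10 p was -15.8 and -23.2, so it was lower in fold and more significant than the start peak in both replicates. The peaks listed only in IP replicate 2 were short and weak, with folds of 1.42 and 1.28 over 60 and 61 nt. They lay at 40.2% and 64.7% of the gene span, between the shared peaks.

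BMP1, the procollagen C-proteinase, also releases the propeptide of LOX. Its shared peak had a fold of 37.0 in IP replicate 1 and 32.5 in IP replicate 2, at percentiles 98.2 and 98.4 of those tables. On chromosome 8, plus strand, it ran from 22165140 to 22165439 in IP replicate 1 and to 22165409 in IP replicate 2, as a single block of 300 and 270 nt. It crossed the annotated start, from position -232 to 67 in IP replicate 1 and to 37 in IP replicate 2. The log10 p was -22.3 and -11.8. The value 37.0 was shared by 21 peaks of IP replicate 1 and is 2 times 18.5, the commonest fold of at least 10 in that table. The value 32.5 was held by 2 peaks of IP replicate 2, this one included, and is 3.25 times 10.0, the commonest such fold there. IP replicate 2 had a further BMP1 peak 642.5 nt from the gene end, at 98.6% of the span, with a fold of 3.26.

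Of the cross-linking oxidases, LOX had folds of 3.29 in IP replicate 1 and 2.42 in IP replicate 2. The peak lay on chromosome 5, minus strand, from 122077665 to 122077844 and from 122077784 to 122077844, so both began at the same base, 415 nt inside the annotated start. It covered 180 nt in IP replicate 1 and 61 nt in IP replicate 2, where its false discovery rate was 0.00708, against 8.13e-05 in IP replicate 1. RefSeq lists further LOX starts 1036 and 1085 nt downstream of the annotated one, past the peak. The span of SRFBP1, on the opposite strand, also covers this region. No other gene span covered a peak of any other member.

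LOXL2, a lysyl oxidase that also acts on collagen IV of basement membranes, had folds of 2.02 in IP replicate 1 and 2.13 in IP replicate 2. Its peak lay at 78.5% of the gene span on chromosome 8, minus strand, from 23317093 to 23320013 in IP replicate 1 and from 23319923 to 23320043 in IP replicate 2. In IP replicate 1 it was listed as a 129-nt block and a 22-nt block with a gap between them, and in IP replicate 2 as a single 121-nt block. The log10 p was -5.23 and -6.06.

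The highest folds lay on the peaks at annotated starts. BMP1 and SERPINH1, the only members whose fold reached 4 in each replicate (2 of the 8 shared peaks, against 42.8% of all shared peaks), were also the only ones with a midpoint within 200 nt of the annotated start (2 of 8, against 22.4% of all shared peaks). Both midpoints stood upstream of that start, as did those of 40 of 2639 shared peaks with a matched gene (1.52%). Across the tables, shared peaks with a midpoint within 200 nt of the start had a median fold of 5.68, against 3.61 for the others. The 40 shared peaks with a midpoint upstream of the start had a median fold of 8.06. Upstream of the start or in the first 10% of the gene span lay 4 of the 8 member peaks, those of BMP1 and SERPINH1 before the start and those of LOX and P4HB inside it, where 40.3% of all shared peaks lay. The last 10% held 2, those near the ends of P4HB and SERPINH1, where 22.7% of all shared peaks lay. When the nearest block edge was used in place of the midpoint, the P4HB start peak joined BMP1 and SERPINH1 within 200 nt, 3 of 8, against 36% of all shared peaks. That P4HB peak had the lowest folds of the 8 member peaks, 1.42 and 1.40.

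**Figure D2:**
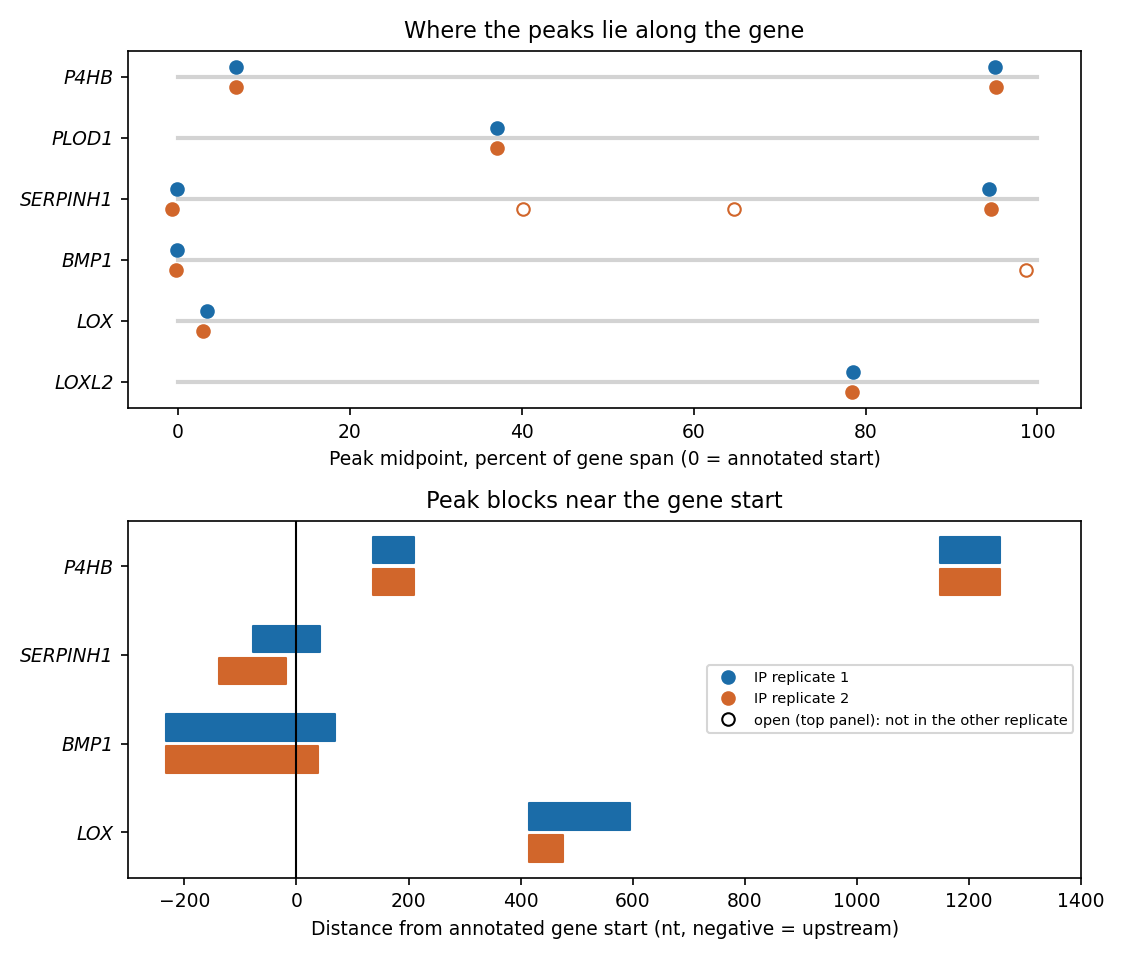
Top, midpoints of all peaks along each gene in percent of its span; bottom, peak blocks by distance in nt from the annotated start (vertical line) for the 4 members with a peak upstream of the start or in the first 10% of the span. Blue is IP replicate 1, orange IP replicate 2. The BMP1 and SERPINH1 blocks reach upstream of the start in both replicates, and those of LOX and P4HB begin 415 and 137 nt inside it.

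The order of the carriers was the same in both replicates, with small steps among the weaker ones. By the geometric mean of both replicates, the strongest shared peaks reached 34.7-fold on BMP1, 10.3 on SERPINH1, 2.82 on LOX, 2.23 on P4HB, 2.07 on LOXL2 and 1.61 on PLOD1. The step from BMP1 to SERPINH1 was 1.75 on the log2 scale, but 2.54 in IP replicate 1 and 0.96 in IP replicate 2. That from SERPINH1 to LOX was 1.87, but 0.95 in IP replicate 1 and 2.79 in IP replicate 2. Each of these steps rests on the SERPINH1 start peak, whose own replicates differed by 1.39, and in 1 replicate each was under the 1.28 within which 95% of all shared peaks differ. At its most significant peak, near the gene end, SERPINH1 had a geometric mean fold of 2.49 and stood below LOX. The steps from LOX to P4HB (0.34), from P4HB to LOXL2 (0.11) and from LOXL2 to PLOD1 (0.36) were under 1.28 too, although the replicate values of these neighbours did not overlap. The median over the 6 carriers was 2.51-fold, and over the 2101 protein-coding genes with a shared peak it was 4.60-fold. Among those genes PLOD1 stood at percentile 5.28, LOXL2 at 13.0, P4HB at 15.8, LOX at 25.7, SERPINH1 at 85.1 and BMP1 at 98.2.

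**Figure D3:**
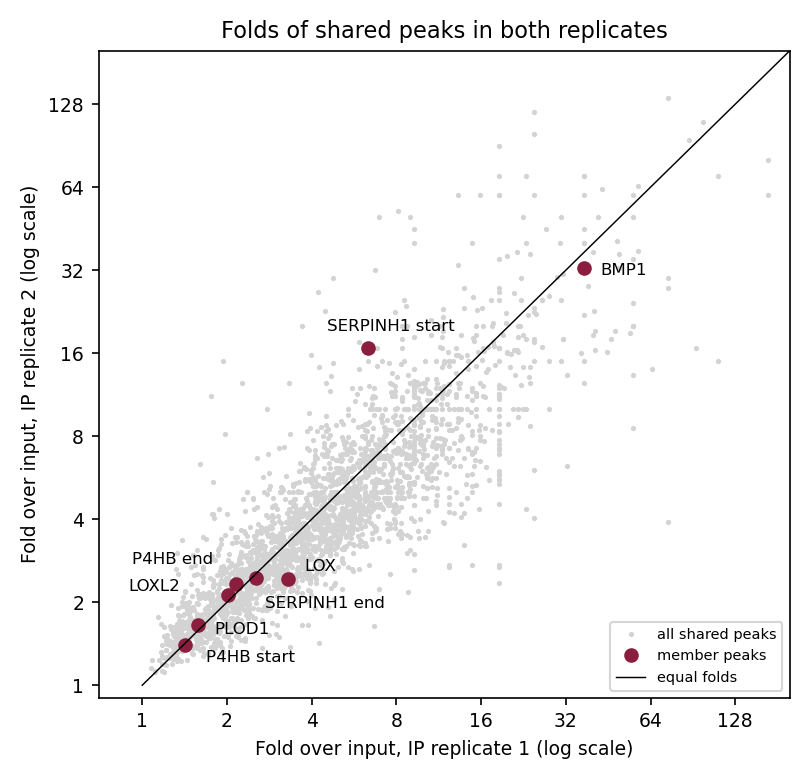
Fold over input in IP replicate 1 (x, log axis) and IP replicate 2 (y, log axis) for all 2642 shared peaks (grey) and the 8 member peaks (dark red), with a line of equal folds. SERPINH1 start lies off the line at 6.36 and 16.7, and the other member peaks lie close to it.

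Apart from the SERPINH1 start peak, replicates were close. Of the 8 member peaks, 6 differed by less than the median of all shared peaks (0.30 on the log2 scale). LOX differed by 0.44, and the SERPINH1 start peak differed by 1.39, past the limit under which 95% of shared peaks lie. In 6 of the 8 pairs the replicates had at least 1 outer edge at the same base, which held for 49.5% of all shared peaks. Edges are coarse, since 82.4% and 82.6% of the single-block peaks of the tables had a length at, or 1 nt above, a multiple of 30 nt.

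Fold and significance did not order the member peaks in the same way. The P4HB end peak was the most significant, with the SERPINH1 end peak second in IP replicate 2 and BMP1 second in IP replicate 1. Over all peaks the rank correlation (Spearman) between fold and -log10 p was 0.138 in IP replicate 1 and 0.109 in IP replicate 2, across 4326 and 4862 peaks that share a library and are not independent.

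**Figure D4:**
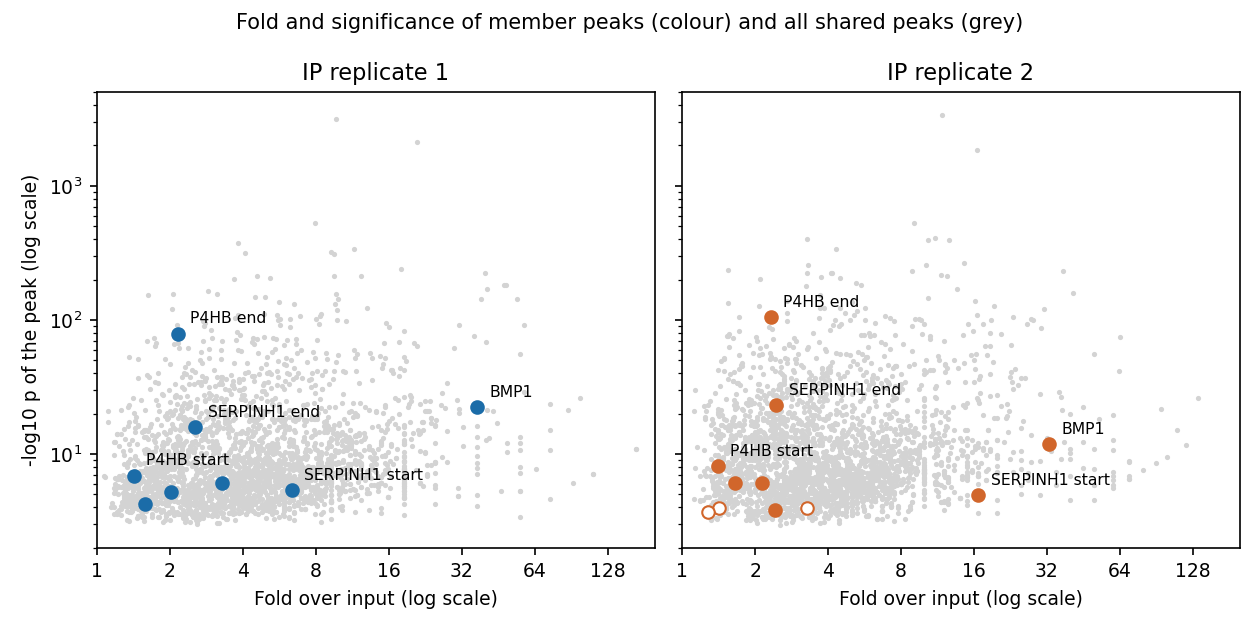
Fold over input (x, log axis) against -log10 p (y, log axis) of member peaks in IP replicate 1 (left, blue) and IP replicate 2 (right, orange), with all shared peaks in grey and open points found in that replicate alone. The P4HB end peak is high in significance at a fold near 2.15 and 2.32, and BMP1 is high in both.

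Of 30 other genes of collagen modification and export, 7 had a shared peak (23.3%, beside 10.5% of all protein-coding genes), 4 had peaks without a shared one and 19 had none. At the strongest shared peak, 0 of the 7 reached a fold of 4 in each replicate, beside 49.2% of the protein-coding genes with a shared peak. P3H4, a cofactor of lysyl hydroxylation, had the highest geometric mean among them, with folds of 3.58 and 5.00 and a midpoint at -40.5 nt from its annotated start. FKBP10, a prolyl isomerase of the endoplasmic reticulum, had 2.35 and 5.00, and P3H3, a prolyl 3-hydroxylase family member, had 3.84 and 2.45. PPIB, cyclophilin B, had 2.81 and 2.71 at 28.5 nt from its start.

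The matrix glycoprotein SPARC, a collagen binder, had 2.67 and 1.72. In the lysyl oxidase family, LOXL1 (1.76 and 1.76) and LOXL4 (1.68 and 1.84) joined LOX and LOXL2 with weak shared peaks, and LOXL3 had no row. P3H1, the catalytic partner of CRTAP and PPIB in collagen prolyl 3-hydroxylation, had a peak of 5.89 in IP replicate 1 alone, and CRTAP had none. PCOLCE, the enhancer of BMP1 activity, had one of 1.39 in IP replicate 2 alone. SEC23A, a coat protein of export vesicles, had 2.47 and KDELR2, a receptor that returns proteins to the endoplasmic reticulum, 1.89, each in IP replicate 1 alone. TLL1 and TLL2, the relatives of BMP1, and P4HA3, the third alpha subunit, had no row.

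Of 20 collagen chain genes, the substrates of these enzymes, 15 had a shared peak (75%, beside 10.5% of all protein-coding genes). Their median fold at the strongest was 4.17, below the 4.60 of all protein-coding genes with a shared peak, and 6 of the 15 reached a fold of 4 in each replicate, beside 49.2%. COL27A1 (10.1 and 15), COL5A1 (8.30 and 14.6), COL6A1 (11.5 and 8.84) and COL7A1 (10.4 and 6.19) were the highest by the geometric mean. COL1A1, the main bone collagen chain, had 4.60 and 6.38, while COL1A2, its partner chain, had no row. COL6A2 (4.87 and 5.04), COL18A1 (5.14 and 3.81), COL16A1 (4.63 and 3.75), COL6A3 (4.14 and 3.81), COL8A1 (4.48 and 3.12) and COL4A2 (2.91 and 4.47) followed. COL11A1 (2.61 and 3.10), COL3A1 (2.53 and 2.83), COL4A1 (2.09 and 2.72) and COL5A2 (2.43 and 2.21) were weaker. COL5A3 had peaks in IP replicate 1 alone. Among all 28 genes of the 3 groups with a shared peak, BMP1 ranked 1, SERPINH1 ranked 4 and PLOD1 ranked 28. The step from BMP1 to the next gene, COL27A1, was 1.49 on the log2 scale, and SERPINH1 differed from its neighbours COL5A1 and COL6A1 by 0.10 and 0.03, less than the spread between replicates.

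**Figure D5:**
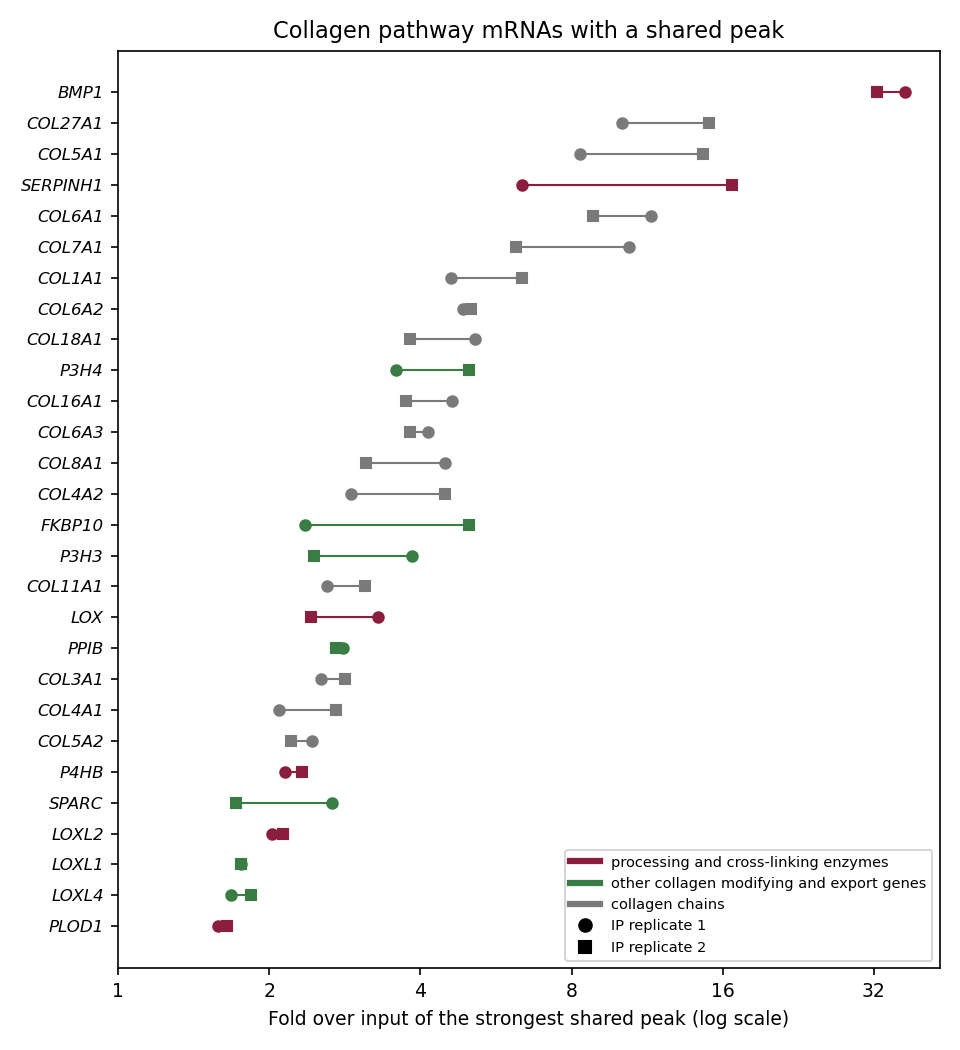
Fold over input (log axis) of the strongest shared peak of 28 collagen pathway genes, ordered by the mean of both replicates, with circles for IP replicate 1 and squares for IP replicate 2. BMP1 is highest in both replicates, at 37.0 and 32.5, and SERPINH1 spans 6.36 to 16.7 among the collagen chains. LOX, P4HB, LOXL2 and PLOD1 lie in the lower part.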

How the data were processed

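Peaks of each m7G IP replicate were deposited as a table of its own, so they were called per replicate. The submitters' processing notes name STAR and GRCh38. The peak caller and the scaling of folds are not stated in those notes, the labels or the file headers. Per the file headers, the authors give each peak a fold enrichment (read as a linear ratio of IP over input), a p-value, and log10 values of the p-value and of the false discovery rate, treated as a score. The weakest false discovery rates were 0.0490 and 0.0479, so weaker peaks are not listed.

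Same-strand blocks were compared, and mutually best overlaps of at least 1 nt were paired, with equal overlaps going to the same gene name. Names were matched to the RefSeq table of GRCh38.p14 by symbol or synonym within 2000 nt (99.9% and 99.8% of peaks). Peak midpoints were taken along the joined blocks and measured from the annotated gene start. Percentages of all genes or peaks are descriptions, and no test was run over the members. Coordinates are 1-based. The pairing was run on simulated data, in which IP replicate 1 peaks were copied with small shifts or moved far away. Those shifts were smaller than that between the SERPINH1 start peaks, and the gene name rule for equal overlaps was not covered. The members and lists were chosen with earlier results of these data known. Every member is named, and of the other lists each gene with a shared peak; further genes were chosen after their values were seen. Sequences are from RefSeq. Python 3.11.15, numpy 2.4.6, pandas 2.3.3 and matplotlib 3.10.9 were used.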

Additional observations from a re-analysis of the deposited data

How the results depend on the processing

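The number of members with any peak stayed at 6 with a false discovery rate of at most 0.001, with every peak on the same strand in the gene span counted, and in each replicate alone. Members with a shared peak numbered 2 (BMP1 and SERPINH1) when each replicate's fold had to reach 4, against 5.17% of all protein-coding genes. They numbered 4 with a false discovery rate of at most 0.001 in both, without LOX and PLOD1 (7.73% of genes), and 5 with an overlap of at least 50% of both peaks, without LOX (8.68%). Of the other modifying and export genes 4, 2 and 0 had a shared peak under the 50% overlap, the stricter false discovery rate and the fold of 4, and 6 collagen chains did under the fold of 4. Divided by the median fold of its table, the log2 fold was 3.17 for BMP1 and 1.42 for SERPINH1. It was -0.62 for the median carrier, -0.45 for LOX, -0.79 for P4HB, -0.89 for LOXL2 and -1.26 for PLOD1. This scaling moves all peaks of a table alike. For SERPINH1 the undivided log2 fold was 4.06 without replicate 1 and 2.67 without replicate 2, and 1.32 at its most significant peak, near the gene end. Of 54 values under alternative settings, 39 stayed within 1.5 times the count, or within 1 SD of the replicate difference for a fold. Another 10 moved further, among them the BMP1 and SERPINH1 values divided by the table median. The other 5 are the values below 0 under that scaling. None of the values under that scaling bears on a member's stability. No paired analysis was possible because peaks were deposited for the IP libraries alone and no test between groups was made. Depth is unknown, so no interval is given for a single fold.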
